A study of Danio rerio with 54 samples.

Results

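Pluripotency-type reprogramming factors were followed through photoreceptor loss and regeneration in the adult zebrafish retina. The set held 10 genes of the 15245 in the count tables, taken by their gene names alone: lin28a, lin28b, myca, mycb, mycn, mych, klf4, klf6a, pou5f3 and nanog. All 10 were listed in the counts and in the normalized table. Of these, 8 had at least 5 reads in at least 6 libraries and entered the tests, while lin28b and klf4 did not and are given by their reads only.

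In mammals, forced expression of an Oct4-type POU factor with Sox2, Klf4 and c-Myc returns differentiated cells to pluripotency, and Lin28 and Nanog can be used in the same way. Lin28 proteins bind RNA and block the maturation of let-7 microRNAs, which otherwise hold down growth genes. Myc proteins pair with Max to raise transcription of genes for ribosome production, metabolism and division. In fish, Müller glia (MG) respond to photoreceptor loss by partly dedifferentiating and dividing into progenitors, and Lin28a is known there as a factor induced by Ascl1a that lowers let-7. In the fish embryo, Pou5f3 and Nanog act with SoxB1 proteins to open the zygotic genome.

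Every library was 3′ mRNA sequencing of 1 whole retina from an albino adult of 6 to 9 months, and 6 retinas made up each of 9 groups. The names of the naïve libraries carry a single age near the upper end of this range. Those of the other groups carry none, and the study calls the naïve fish age-matched. Naïve fish stayed on the 14 h light and 10 h dark cycle at 250 lux, and 0 h fish had spent 5 days in the dark. All later groups had the same 5 days of darkness, then 30 min at about 100000 lux and continuous light of about 10000 lux until 72 h, and were sampled at 24, 36 or 72 h (hpl) or at 5, 10, 14 or 28 days (dpl) after light onset. The study's methods speak of 2 separate experiments. Replicates 1 to 3 of each time were taken here as experiment 1 and replicates 4 to 6 as experiment 2, because the names of their raw read files carry different lane marks and different runs of library numbers. No label states this split, and every within-experiment value rests on it. The naïve libraries carry names of another form, while their library numbers follow directly on those of experiment 1. No label places them in either experiment.

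The 48 libraries from 0 h to 28 dpl held 1111503 to 4040445 counted reads, apart from replicate 2 at 5 dpl with 228611. This was 9.06% of the median depth of the other libraries of its group. Summed photoreceptor markers, 19 genes, lay at 129998 to 219678 pseudo-counts per retina at 0 h and at 11474 to 16772 at 24 hpl, and were back at 143018 to 184475 by 10 dpl. A pseudo-count is a read count that edgeR moves toward a common library size, so that a retina with no read of a gene can hold a value slightly above 0. In whole retinas, fewer cells of a type and less RNA per cell cannot be told apart.

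At 24 hpl, 5 of the 8 tested factors were higher than at 0 h (mych, lin28a, klf6a, mycb and mycn) against 19.0% of all 13075 genes, and 1 was lower (myca) against 17.7%. One of the 5, mych, entered the tests through the times at which it was high, since it held 5 reads or more in 23 of the 48 libraries. This gene is also among those counted as higher at 36 and 72 hpl. At 36 hpl 5 were higher against 23.6% of genes, and 0 were lower against 23.4%. At 72 hpl 4 were higher against 22.7%, and at 5 dpl 4 against 17.5%, with 0 lower against 20.2% and 14.3%. At each of these 3 times 1 further factor had an unadjusted p below 0.05 (nanog lower at 36 hpl, lin28a higher at 72 hpl and mych higher at 5 dpl), and DESeq2 and limma also called 0 lower. At 10, 14 and 28 dpl 0 of the 8 were called in either direction, where 7.06%, 8.50% and 4.72% of genes were higher and 2.85%, 4.67% and 3.36% lower. The edgeR counts of 0 compare with 1, 1 and 3 factors at an unadjusted p below 0.05, with 0, 1 and 2 called by DESeq2 and with 1, 1 and 0 called by limma. The median log2 fold change of the tested factors was 1.44 at 24 hpl and -0.22 at 28 dpl, beside -0.10 and 0.00 over all genes. A called gene is one with a Benjamini-Hochberg adjusted p under 0.05 over all genes tested, in edgeR's quasi-likelihood fit of the read counts unless another tool is named.

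**Figure D1:**
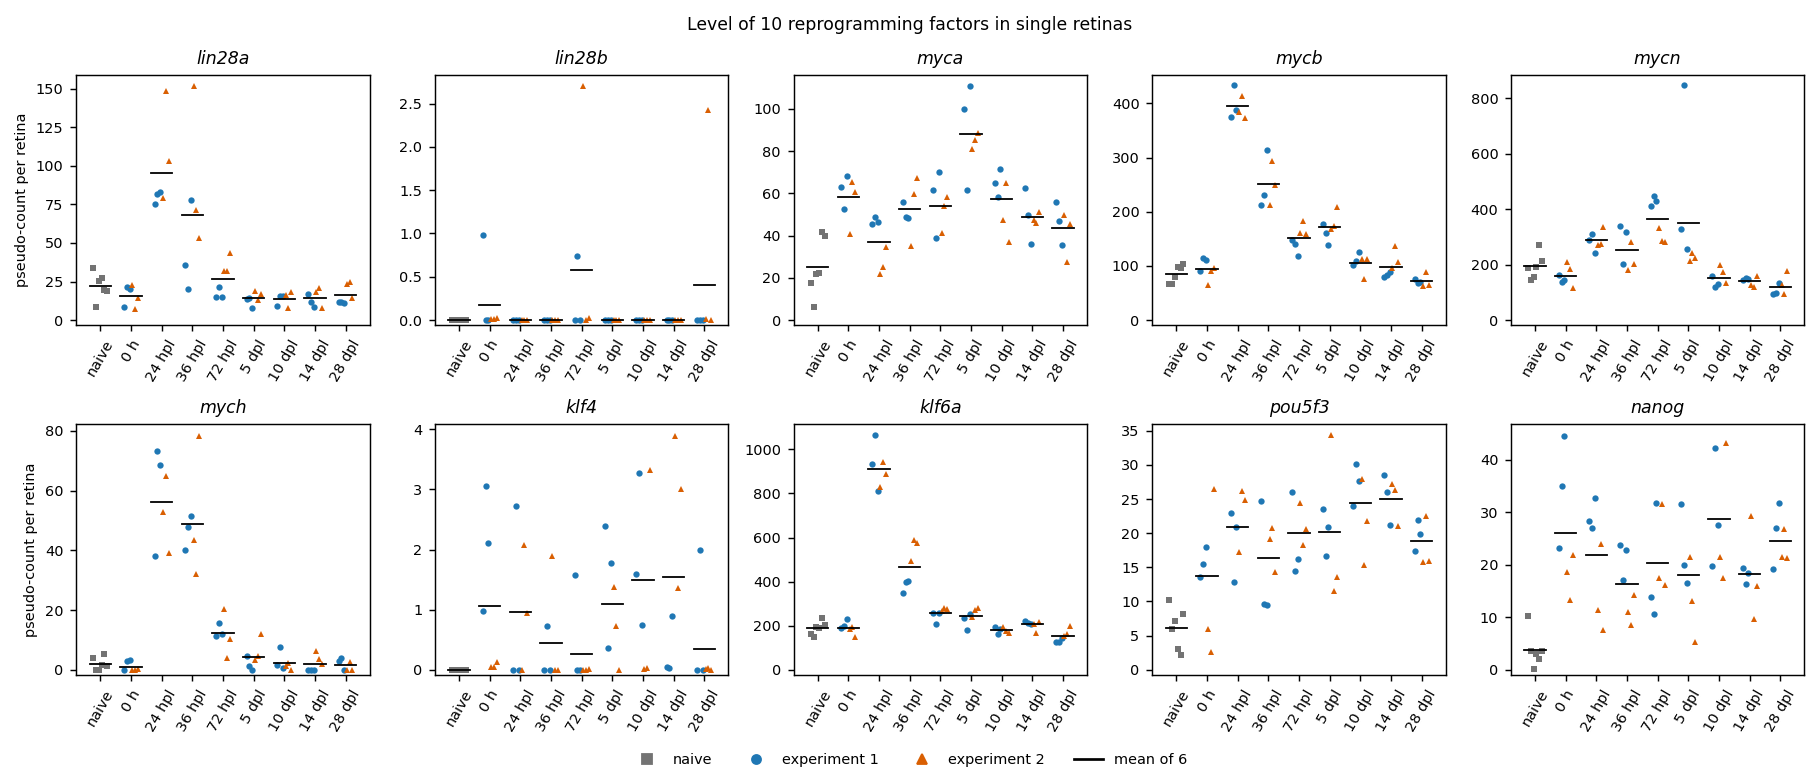
Pseudo-count of each of the 10 factors (y axis, 1 panel per gene, each with its own scale from 0) in every retina of the 9 groups (x axis), with circles for experiment 1, triangles for experiment 2, squares for naïve fish and a bar at the mean of 6. Means of mycb, mych, lin28a and klf6a stand highest at 24 hpl, while 1 retina at 5 dpl holds 849 pseudo-counts of mycn.

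The RNA-binding factor lin28a rose early and briefly. The 0 h retinas held a lowest level of 7.37, a median of 17.4 and a highest level of 23.0 pseudo-counts. At 24 hpl these were 75.2, 82.6 and 148. Every 24 hpl retina lay above every 0 h retina, and the log2 fold change was 2.51 ± 0.30 (SE, 6 retinas per group, adjusted p = 6.9e-10, edgeR). At 36 hpl the retinas spread widely, from 20.0 through a median of 62.3 to 152. The 36 hpl group overlapped with 0 h in 1 retina, and the log2 fold change was 1.99 ± 0.30 (adjusted p = 1.8e-07). The highest of these retinas came from the most deeply sequenced library of the series, with 4040445 reads. Whether depth had a part in this level was not tested.

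By 72 hpl lin28a lay between 15.1 and 43.2 with a median of 26.4, and the difference from 0 h, 0.64 ± 0.31, was not called (adjusted p = 0.095). It was 0.08 in experiment 1 and 1.26 in experiment 2 (adjusted p = 0.90 and 0.033), and the 2 experiments did not differ by a called amount (difference 1.18, adjusted p = 0.40 for the interaction). Without 0 h replicate 2 it was called (0.82, adjusted p = 0.043). The step from 24 to 36 hpl was not called (-0.52 ± 0.26, adjusted p = 0.22) unless the highest 36 hpl retina, replicate 4, was left out (-0.82, adjusted p = 0.039). The step from 36 to 72 hpl was a fall of -1.35 ± 0.28 (adjusted p = 2.9e-04). A further fall from 72 hpl to 5 dpl stood near the threshold, -0.92 ± 0.32 (adjusted p = 0.043), and was called in 4 of the 12 fits that each left out 1 retina of these 2 groups. From 5 dpl on, means ran from 13.7 to 16.2 pseudo-counts, close to the 15.9 ± 6.74 (SD, n = 6) of 0 h. Averaged over the course, lin28a was higher in experiment 2 than in experiment 1 by 0.57 on the log2 scale (adjusted p = 0.0018), 1 of 7070 genes that differed between the experiments. This did not hold at every time, with 0 h means of 16.8 pseudo-counts in experiment 1 and 15.0 in experiment 2.

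Its paralog lin28b was barely seen. It had 7 reads in all, in 4 of the 48 libraries, with at most 3 in 1 library, and was listed at 0 in the 6 naïve retinas. At 24 and 36 hpl, when lin28a stood highest, lin28b had 0 reads over 6 libraries each, which allows a level of up to 0.261 and 0.192 CPM (reads scaled to the library total; 3 reads of the group's total, counting error only). Measured lin28 transcript was thus almost entirely lin28a, with a mean share of at least 98.1% in every group.

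Of 21 other genes of the Lin28 and let-7 pathway, RNA-binding partners and processing enzymes, 4 were higher and 6 lower at 24 hpl, where 19.0% and 17.7% of all genes were. At 36 and at 72 hpl 4 were higher and 8 lower, beside 23.6% and 22.7% of all genes higher and 23.4% and 20.2% lower. Their median log2 fold change was -0.19 at 24 hpl beside -0.10 for all genes. The chromatin protein gene hmga1a, whose mammalian relative HMGA2 is a let-7 target, was higher at 24 hpl by 1.06 and at 72 hpl by 2.94 (adjusted p = 9.3e-09 and 9.8e-24). The translational regulators igf2bp2b, msi2b and msi1 were lower at 24 hpl, by -3.04, -1.46 and -1.37 (adjusted p = 8.2e-18, 3.8e-16 and 1.0e-12). At 72 hpl igf2bp2b and msi2b were lower by -2.02 and -1.98 (adjusted p = 9.1e-13 and 3.6e-21), while msi1 was not called (-0.17, adjusted p = 0.30).

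The 4 myc genes took separate courses. In zebrafish, myca and mycb are the duplicates of c-Myc, mycn corresponds to mammalian MYCN, and mych is a fish homolog known for a part in neural crest survival. The gene mych was almost silent at 0 h, with 6 reads over the 6 retinas, all in experiment 1. At 24 hpl the lowest, median and highest level were 38.1, 58.7 and 73.3 pseudo-counts, and at 36 hpl they were 32.0, 45.6 and 78.3. All retinas at both times lay above all 0 h retinas, whose highest level was 3.14. From pooled reads, mych stood at 31.5 CPM at 24 hpl and 0.613 CPM at 0 h, a ratio of 51.4 (95% exact interval 23.4 to 141, counting error only). In experiment 1 alone, which held all the 0 h reads, the ratio was 30.5 (13.8 to 84.0). In experiment 2 its 0 h retinas had 0 reads against 158 at 24 hpl, which makes it at least 42.5-fold higher there, against 3 reads over the group.

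By 72 hpl mych had dropped to levels between 4.09 and 20.4, still above every 0 h retina. The fitted log2 fold change against 0 h was 5.47 ± 0.64 at 24 hpl, 5.27 ± 0.64 at 36 hpl and 3.32 ± 0.70 at 72 hpl (adjusted p = 3.1e-10, 7.3e-10 and 9.9e-05). These fitted values depend on the very low 0 h reads, and the pooled ratio at 72 hpl was 11.2 (95% exact interval 4.97 to 31.4), or 6.36 (2.74 to 18.1) in experiment 1. The step from 36 to 72 hpl was a called fall of -1.95 ± 0.44 (adjusted p = 0.0011). At 5 dpl mych lay between 0 and 11.9 pseudo-counts with a median of 3.89, and the difference from 0 h was not called (1.91 ± 0.81, adjusted p = 0.065). It was called by DESeq2 and edgeR's likelihood ratio test (adjusted p = 0.029 and 0.014) and without 0 h replicate 2 or 3 or 5 dpl replicate 3 (adjusted p of 0.025 to 0.036). Experiment 1 alone gave 0.10 (adjusted p = 0.97) and experiment 2, with 0 reads at 0 h, a call (adjusted p = 0.0052), and the interaction was not called (adjusted p = 0.16). From 10 to 28 dpl the group means were 1.61 to 2.19 pseudo-counts, beside 2.02 ± 2.12 in naïve fish (SD, n = 6).

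For mycb, levels ran from 65.1 through a median of 93.9 to 115 at 0 h and from 373 through 386 to 435 at 24 hpl. The 24 hpl retinas were tightly grouped and lay far above all of 0 h (log2 fold change 2.04 ± 0.14, adjusted p = 2.9e-18). It then stepped down, by -0.64 ± 0.13 from 24 to 36 hpl and by -0.73 ± 0.13 from 36 to 72 hpl (adjusted p = 2.2e-04 and 3.6e-05). Between 72 hpl and 5 dpl the mean went from 151 ± 21.8 to 171 ± 23.4 pseudo-counts, which was no called change (0.16 ± 0.13, adjusted p = 0.51). All retinas at 36 hpl, 72 hpl and 5 dpl still lay above all 0 h retinas, with log2 fold changes of 1.40, 0.67 and 0.83 (adjusted p = 1.1e-12, 6.7e-05 and 4.0e-06). A fall of -0.69 ± 0.14 from 5 to 10 dpl (adjusted p = 2.5e-04) brought mycb back to 106 ± 16.9, with 5 of 6 retinas inside the 0 h range and 1 above it. Fitted alone, experiments 1 and 2 gave 0.38 and 1.03 at 72 hpl against 0 h (edgeR adjusted p = 0.073 and 2.5e-04). The fall from 36 to 72 hpl was -0.92 and -0.60 (2.4e-04 and 0.053), and that from 5 to 10 dpl -0.50 and -0.89 (0.085 and 0.0032).

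Its duplicate myca went the other way at first. Levels at 0 h ran from 40.8 through a median of 61.9 to 68.1, and at 24 hpl from 22.0 through 39.9 to 48.9. At 24 hpl 3 retinas lay below the 0 h range and the other 3 inside it. The log2 fold change was -0.67 ± 0.20 (adjusted p = 0.0047). The experiments gave -0.34 and -0.96 when fitted alone (adjusted p = 0.33 and 0.021), with no called difference between them (adjusted p = 0.76). At 36 and 72 hpl myca did not differ from 0 h by a called amount (-0.15 and -0.10). It stood highest at 5 dpl, from 61.6 through a median of 87.0 to 111, where 5 of 6 retinas lay above the 0 h range. The remaining retina was replicate 2, the shallow library, with 8 reads of myca. The log2 fold change at 5 dpl was 0.62 ± 0.19 against 0 h and 0.72 ± 0.19 against 72 hpl (adjusted p = 0.0090 and 0.0046), followed by a fall of -0.66 ± 0.19 to 10 dpl (adjusted p = 0.011). None of these was called in either experiment fitted alone. Against 0 h the experiments gave 0.64 and 0.62 (edgeR adjusted p = 0.067 and 0.12), and against 72 hpl 0.73 and 0.70 (0.052 and 0.18). The fall to 10 dpl was -0.59 and -0.79 (0.16 and 0.081).

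The gene mycn, which in mouse drives growth and division of retinal progenitors, was higher at all 4 times up to 5 dpl. It ran from 115 through a median of 153 to 211 at 0 h, from 243 through 282 to 336 at 24 hpl, and from 281 through 372 to 446 at 72 hpl. The 24 and 72 hpl retinas all lay above the 0 h range, while 3 of 6 retinas did at 36 hpl. Log2 fold changes were 0.84 ± 0.21, 0.65 ± 0.21 and 1.19 ± 0.21 at 24, 36 and 72 hpl (adjusted p = 0.0011, 0.0082 and 5.1e-06). At 72 hpl the 3 retinas of experiment 1 lay between 413 and 446 and those of experiment 2 between 281 and 331, with no called interaction (difference -0.73, adjusted p = 0.36). In experiment 2 alone mycn was not called at 36 hpl (0.42, adjusted p = 0.12, beside 0.99 in experiment 1).

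At 5 dpl mycn ran from 214 through a median of 248 to 849 pseudo-counts. The highest value belongs to replicate 2, the shallow library, with 129 reads, and the other retinas lay at 328 or below. The log2 fold change of 1.0 ± 0.22 (adjusted p = 2.3e-04) became 0.65 (adjusted p = 0.0016) without that library. Experiment 1, which holds it, gave 1.55 and experiment 2 gave 0.40 (adjusted p = 3.4e-04 and 0.18), with an interaction that was not called (-1.16, adjusted p = 0.10). The change from 72 hpl to 5 dpl was not called with it (-0.19, adjusted p = 0.64) and was a fall without it (-0.55, adjusted p = 0.014). Likewise the rise from 36 to 72 hpl was called without that library (0.54, adjusted p = 0.0099) or without 36 hpl replicate 1 (0.62, adjusted p = 0.045), and not with all libraries (0.53, adjusted p = 0.076). From 5 to 10 dpl mycn fell by -1.07 ± 0.21, or -0.73 without that library (adjusted p = 2.4e-04 and 9.4e-04), and by -1.70 in experiment 1 and -0.44 in experiment 2 alone (adjusted p = 2.6e-04 and 0.22).

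Shares within the family show these courses side by side, since 3′ libraries count 1 fragment per transcript end and do not scale with transcript length, although priming may still differ between genes. At 0 h, mycn made up 50.5% ± 9.08 (SD, n = 6) of the summed myc pseudo-counts, mycb 30.5% ± 6.29, myca 18.7% ± 3.35 and mych 0.34% ± 0.50. At 24 hpl the sum went from 313 ± 22.6 to 776 ± 50.1 pseudo-counts, and mycb held the largest share, 50.9% ± 2.01. The share of myca was then 4.77% ± 1.43 and that of mych 7.21% ± 1.78. By 72 hpl mycn held 62.04% ± 6.63 of a sum of 582 ± 59.9. At 28 dpl the shares were near those of 0 h, with mycn at 49.97% ± 7.84, mycb at 30.8% ± 6.53 and myca at 18.5% ± 4.53, in a sum of 237 ± 26.4.

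**Figure D2:**
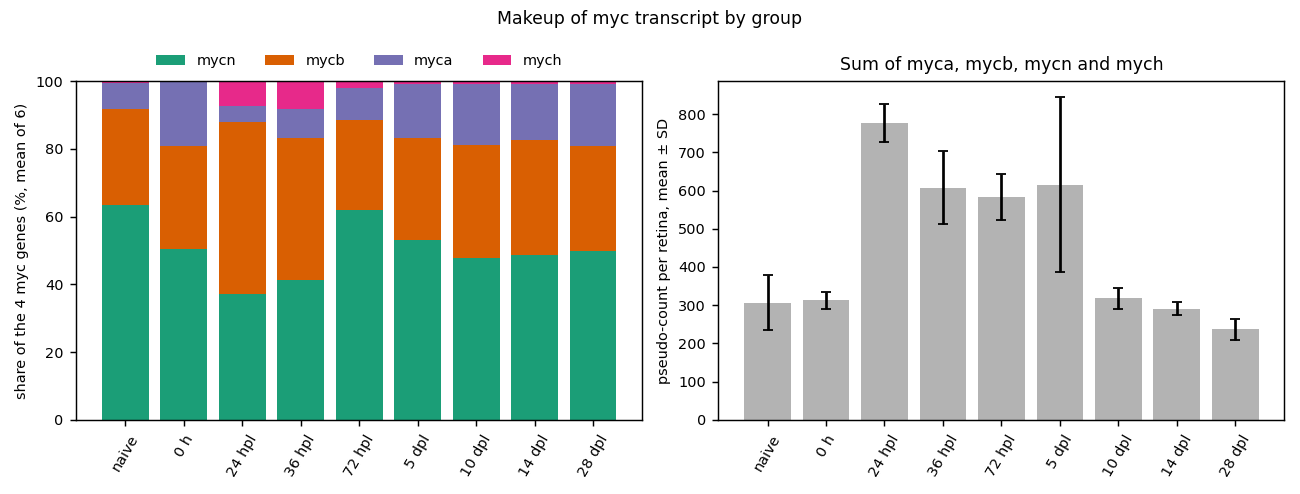
Left, mean share (%) of mycn, mycb, myca and mych in their summed pseudo-counts for each group, mean of 6 retinas; right, the sum per retina (mean ± SD, n = 6). The share of mycb is 50.9% at 24 hpl and that of mycn 62.04% at 72 hpl, and the wide bar at 5 dpl includes the shallow library.

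Genes listed as Myc targets, chiefly nucleolar, ribosome assembly and nucleotide synthesis genes, were mostly higher. Of 45 tested, 37 were higher and 1 lower at 24 hpl (19.0% and 17.7% of all genes), and 35 were higher and 6 lower at 36 hpl (23.6% and 23.4%), with medians of 1.31 and 1.35 beside -0.10 and -0.08 over all genes. Among them, the nucleolar protein genes npm1a, gnl3 and nop58 and the mitochondrial chaperone gene hspd1 were higher at 24 hpl by 3.38, 2.25, 2.45 and 2.79. From 36 to 72 hpl 24 of these 45 fell and 2 rose, beside 5.92% and 6.68% of all genes. In this interval mycb, mych, lin28a and klf6a also fell, while mycn went up without a call (0.53, edgeR adjusted p = 0.076). A link between the factors and these listed genes was not tested. At 5 dpl 28 of the 45 were higher and 2 lower than at 0 h, beside 17.5% and 14.3% of all genes. At 28 dpl 1 was higher and 1 lower, beside 4.72% and 3.36%.

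Among 22 tested partners, antagonists and cofactors of Myc, 7 were higher and 4 lower at 24 hpl (19.0% and 17.7% of all genes), and 12 were higher and 2 lower at 72 hpl (22.7% and 20.2%), with a median of 0.49 at 72 hpl beside -0.04 for all genes. The kinase gene pim1 was higher by 2.23 at 24 hpl (adjusted p = 1.2e-16) and the chromatin cofactor genes wdr5 and ruvbl1 by 0.81 and 0.96 (adjusted p = 8.5e-07 and 9.8e-06). The gene bin1b, related to a mammalian Myc-binding tumor suppressor, was lower by -1.09 (adjusted p = 2.1e-08). The Myc partner gene max, picked out after its values were seen, was higher by 1.03 at 24 hpl and 1.13 at 36 hpl (adjusted p = 1.4e-05 and 1.8e-06). A further myc family gene, mycla, was higher by 1.97 at 72 hpl (adjusted p = 1.3e-07).

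The zinc finger factor klf6a, known in zebrafish for a part in regrowth of retinal ganglion cell axons, changed with small error. Levels ran from 147 through a median of 192 to 230 at 0 h and from 810 through 910 to 1067 at 24 hpl. All 24 hpl retinas lay far above 0 h, and the log2 fold change was 2.23 ± 0.12 (adjusted p = 8.0e-22). At 36 hpl klf6a ran from 347 through 450 to 590, again above all of 0 h (1.26 ± 0.12, adjusted p = 4.4e-13). The 3 retinas of experiment 1 at 36 hpl, 347 to 405, lay below the 3 of experiment 2, 495 to 590. Against 0 h they gave 0.94 and 1.69 on the log2 scale, and the interaction was not called (adjusted p = 0.062).

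It stepped down by -0.97 ± 0.12 from 24 to 36 hpl and by -0.84 ± 0.12 from 36 to 72 hpl (adjusted p = 4.2e-09 and 2.1e-07). At 72 hpl it was still 0.42 ± 0.12 above 0 h and at 5 dpl 0.34 ± 0.12 (adjusted p = 0.0033 and 0.029), with 5 of 6 retinas above the 0 h range each time. In experiment 1 alone neither was called (0.25 and 0.13, edgeR adjusted p = 0.20 and 0.63). Experiment 2 alone gave 0.66 and 0.57 (adjusted p = 0.0011 and 0.0056). The 5 dpl call was lost without 0 h replicate 4, 5 or 6 or without 5 dpl replicate 3, 5 or 6 (adjusted p of 0.053 to 0.11). After a fall from 5 to 10 dpl of -0.45 ± 0.12 (adjusted p = 0.0073), klf6a stood at 179 ± 14.3, and at 28 dpl at 151 ± 27.6 beside 191 ± 26.7 at 0 h (SD, n = 6). The difference of 28 dpl from 0 h was -0.37 ± 0.12 and missed the threshold (adjusted p = 0.052), as did that of mycb, -0.43 ± 0.15 (adjusted p = 0.057). Both were called in 6 of the 11 other settings, DESeq2 among them, and in 3 of the 12 fits that left out 1 retina: klf6a without 0 h replicate 5 or 6 or 28 dpl replicate 6, and mycb without 0 h replicate 4 or 5 or 28 dpl replicate 5.

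The pluripotency factor klf4 itself was close to the detection limit. It had 45 reads in 22 of the 48 libraries and at most 3 in 1 library. Per group it had between 2 reads (72 hpl and 28 dpl) and 9 reads (10 dpl), and at 0 h and 24 hpl 6 reads each. At this depth no course over time could be seen. In the 6 naïve retinas it was listed at 0.

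Of 16 further Krüppel-like factor genes tested, 3 were higher and 3 lower at 24 hpl, close to the 19.0% and 17.7% of all genes. At 36 hpl 2 were higher and 7 lower (23.6% and 23.4% of all genes), and at 72 hpl 1 was higher and 5 lower (22.7% and 20.2%), with a median of -0.75 at 36 hpl beside -0.08 for all genes. At 24 hpl klf7b was higher by 0.70 (adjusted p = 3.8e-04), and klf13, klf7a and klf15 were lower by -1.32, -0.76 and -1.90 (adjusted p = 1.7e-05, 4.1e-05 and 5.3e-04). In fish, klf7a has been tied to ganglion cell axon regrowth together with klf6a, and here it was lower at 24 hpl while klf6a was higher.

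The embryonic factors pou5f3 and nanog were detected in every one of the 48 libraries, at low level. With all 48 libraries, edgeR's quasi-likelihood fit called neither in any of the 13 comparisons within the time course. Its likelihood ratio test called pou5f3 higher than at 0 h at 10 and 14 dpl (0.84 and 0.87, adjusted p = 0.040 and 0.028). Without 5 dpl replicate 2 the quasi-likelihood fit called pou5f3 at 14 dpl (0.87, adjusted p = 0.049). On log2(pseudo-count + 1), limma called pou5f3 higher than at 0 h at 24 hpl, 72 hpl, 10 dpl and 14 dpl (0.81, 0.76, 1.03 and 1.09, adjusted p = 0.035, 0.042, 0.023 and 0.015), and DESeq2 called it at 14 dpl (0.84, adjusted p = 0.037). At 0 h pou5f3 ran from 2.67 through a median of 14.5 to 26.5 pseudo-counts. Above this range lay 1 retina at 5 dpl, 3 at 10 dpl and 2 at 14 dpl. At 24 hpl pou5f3 ran from 12.9 through 21.9 to 26.1. It ran from 15.3 through 25.8 to 30.1 at 10 dpl and from 21.0 through 26.2 to 28.5 at 14 dpl. These groups overlapped with 0 h. The differences from 0 h at 24 hpl, 10 dpl and 14 dpl were 0.60 ± 0.31, 0.83 ± 0.31 and 0.87 ± 0.31 (edgeR adjusted p = 0.13, 0.081 and 0.057). The outcome rested partly on replicate 6 at 0 h, the highest of that group, without which 14 dpl was higher than 0 h by 1.13 (adjusted p = 0.018) and 24 hpl by 0.94 (adjusted p = 0.018). Without it 72 hpl, 5 dpl and 10 dpl were also called (0.86, 0.86 and 1.09), and 14 dpl was called without 0 h replicate 3 as well (0.98, adjusted p = 0.046).

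For nanog, levels ran from 13.3 through a median of 22.6 to 44.6 at 0 h, from 8.49 through 15.7 to 23.8 at 36 hpl, and from 19.2 through 24.2 to 31.8 at 28 dpl. All groups overlapped. The difference at 36 hpl was -0.69 ± 0.32 (adjusted p = 0.073). Averaged over the course, nanog was lower in experiment 2 than in experiment 1, by -0.46 on the log2 scale (adjusted p = 0.015). This did not hold at every time, with 72 hpl means of 18.8 pseudo-counts in experiment 1 and 21.7 in experiment 2. Both genes had few reads, 96 to 171 per group for nanog and 69 to 150 for pou5f3, and the SE of their log2 fold changes against 0 h was 0.31 to 0.33.

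**Figure D3:**
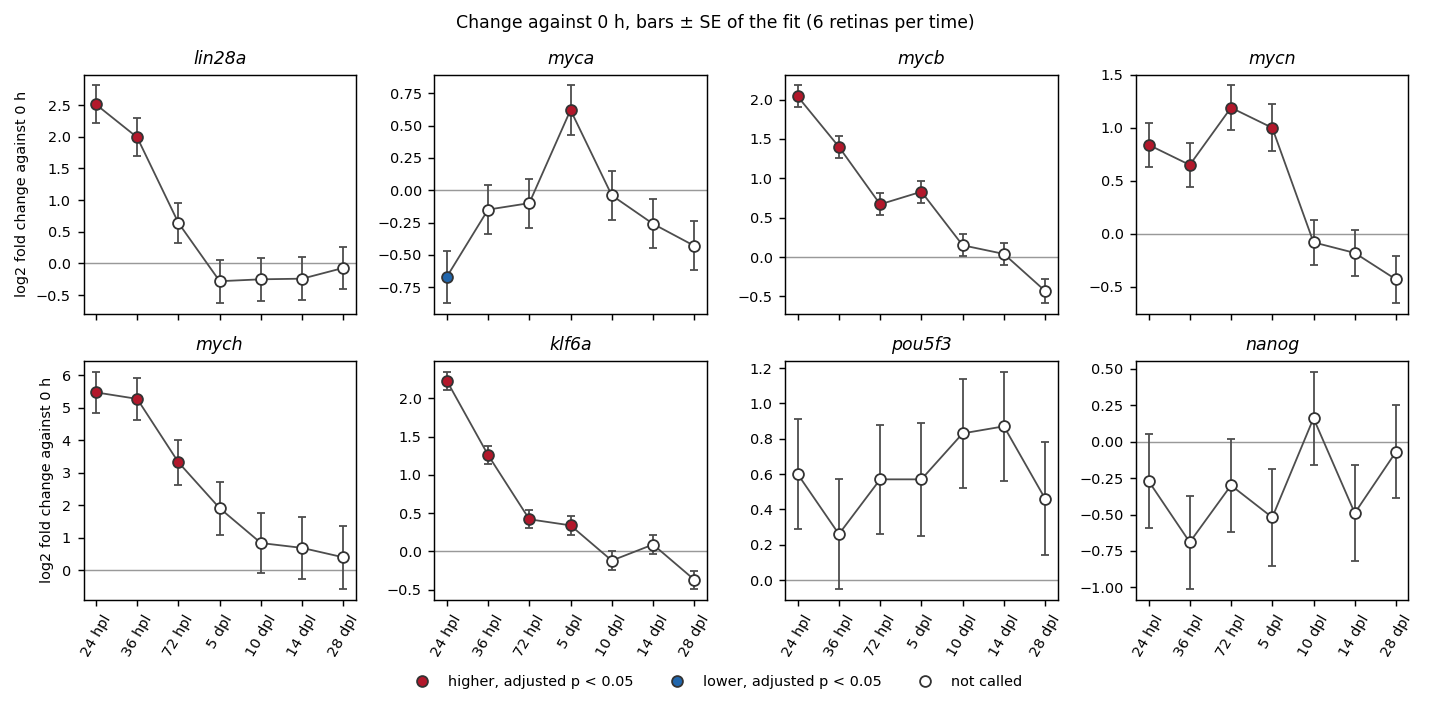
Log2 fold change against 0 h (y axis, own scale per panel) of the 8 tested factors at 7 times (x axis, evenly spaced). Bars show ± SE derived from the F statistic of the edgeR fit over 48 libraries, and filled points mark calls. Calls lie at 24 hpl to 5 dpl, with mych highest at 5.47, and the single lower call is myca at 24 hpl, -0.67.

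Of 29 other pluripotency and early-embryo genes tested, 3 were higher and 5 lower at 24 hpl, no larger a share than the 19.0% and 17.7% of all genes. At 36 hpl 4 were higher and 8 lower, beside 23.6% and 23.4%, and at 72 hpl 10 were higher and 6 lower, beside 22.7% and 20.2%. The median was -0.21 at 24 hpl and 0.21 at 72 hpl, beside -0.10 and -0.04 for all genes. The SoxB1 factor sox2, the remaining member of the classical quartet, was higher by 1.29 ± 0.21 at 24 hpl, 1.97 at 36 hpl and 1.81 ± 0.21 at 72 hpl (adjusted p = 1.2e-06, 1.6e-11 and 2.7e-10). The POU factor pou3f1 was lower at 24 hpl by -0.58 and higher at 72 hpl by 2.30 (adjusted p = 0.0016 and 7.1e-20). The zinc finger gene zic2b was higher by 3.08 at 72 hpl (adjusted p = 6.1e-10), while esrrb and sall1a were lower, by -1.77 and -1.03 (adjusted p = 3.4e-06 and 1.3e-08).

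Taken step by step, the tested factors fell more than they rose after 24 hpl. From 24 to 36 hpl 2 fell (klf6a, mycb) against 5.25% of genes and 0 rose against 6.20%. From 36 to 72 hpl 4 fell (klf6a, lin28a, mycb, mych) against 5.92%, and 0 rose against 6.68%. Of these 4, mych had entered the tests through the times at which it was high, so a later fall was favored. From 72 hpl to 5 dpl 1 fell (lin28a) against 6.96% and 1 rose (myca) against 6.54%. In this step limma did not call lin28a (adjusted p = 0.080). The fall of mych, -1.42 ± 0.54, was not called by the quasi-likelihood fit (adjusted p = 0.075). It was called by DESeq2, limma and edgeR's likelihood ratio test (adjusted p = 0.0195, 0.035 and 0.018). From 5 to 10 dpl 4 fell (klf6a, myca, mycb, mycn) against 6.81%, and 0 rose against 5.75%. Beside the counts of 0 that rose, 1 factor each had an unadjusted p below 0.05 in that direction (myca from 24 to 36 hpl, mycn from 36 to 72 hpl and nanog from 5 to 10 dpl), of which DESeq2 called myca and limma 0. The steps from 10 to 14 dpl and from 14 to 28 dpl held 0 calls of factors, with 0% and 0.314% of genes higher and 0.0612% and 0.489% lower, and 0 and 2 factors at an unadjusted p below 0.05. In these steps DESeq2 called 0 and 1 factors (klf6a, 14 to 28 dpl) and limma 0 and 0.

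All 31 calls against 0 h or between consecutive times had the same sign in both experiments. They were picked from the fit of both experiments together, which favors the same sign, so this is no separate test. Several were not called in an experiment fitted alone. The interaction of time and experiment was called for 0 of 56 factor comparisons by edgeR, with 10 at an unadjusted p below 0.05, while 3 to 148 genes of 13075 were called per time.

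Genes of the regeneration response changed as well, though not all in step with the factors. Of 46 tested regulators of MG reprogramming, 28 were higher and 6 lower at 24 hpl, beside 19.0% and 17.7% of all genes. Among them atf3, junbb, jak1 and cdh2 were higher by 6.12, 3.86, 2.44 and 1.90. At 36 hpl 31 of the 46 were higher and 4 lower (23.6% and 23.4% of all genes). At 72 hpl 33 were higher and 2 lower (22.7% and 20.2%). From 24 to 36 hpl 13 rose and 6 fell, beside 6.20% and 5.25% of all genes. At 24 hpl 12 of 25 tested S phase and mitosis genes were called higher and 2 lower, beside 19.0% and 17.7% of all genes. All 25 were higher at both 36 and 72 hpl, beside 23.6% and 22.7% of all genes. Their medians at 24, 36 and 72 hpl were 0.87, 3.02 and 2.95. Summed over 26 genes, the S phase and mitosis level was 800 to 947 pseudo-counts at 0 h, 1528 to 2338 at 24 hpl and 4711 to 7474 at 36 hpl. Between these last times klf6a and mycb fell, while the steps of lin28a and mych were not called (-0.52 and -0.20, adjusted p = 0.22 and 0.83).

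**Figure D4:**
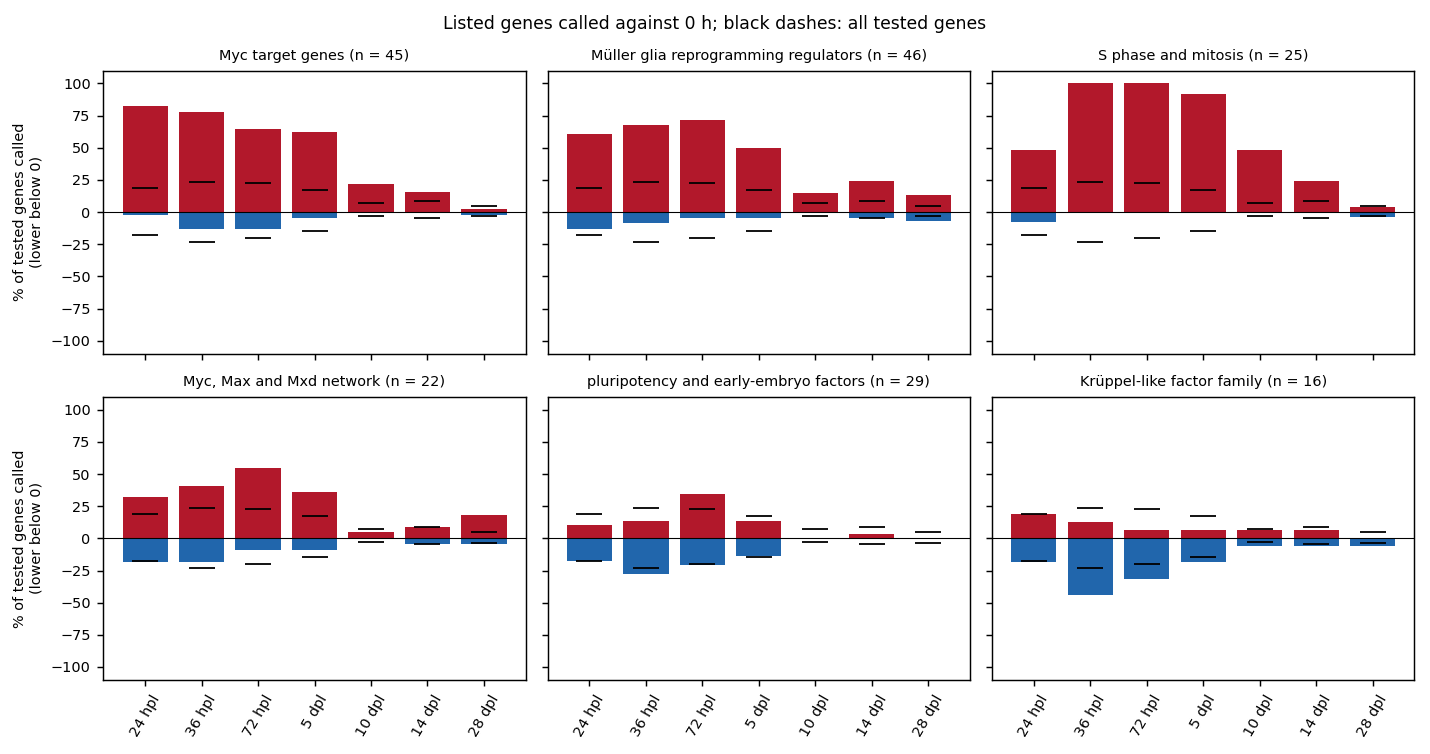
Percent of tested genes called higher (red, above 0) and lower (blue, below 0) than 0 h in 6 gene lists without the 10 factors, at 7 times, with black dashes for the same percent over all 13075 genes. Of the Myc targets 37 of 45 are higher at 24 hpl, and of the Krüppel-like genes 7 of 16 are lower at 36 hpl.

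Markers of other cells moved too. The summed level of 20 microglia and macrophage genes was 1175 to 1640 pseudo-counts at 0 h, 2021 to 3873 at 24 hpl and 4239 to 7222 at 72 hpl, and the 7 neutrophil genes went from 23.5 to 41.4 at 0 h to 86.9 to 193 at 24 hpl, with npsn at 0 throughout. The 12 MG genes, of which apoeb is also in the microglia list, summed to 5718 to 8816 at 0 h, 3866 to 6751 at 24 hpl and 21482 to 31419 at 72 hpl. Of these 12 genes, 4 were called higher and 5 lower at 24 hpl, beside 19.0% and 17.7% of all genes. At 72 hpl 6 were higher and 1 lower, beside 22.7% and 20.2%. Their median log2 fold changes were -0.30 and 0.79, beside -0.10 and -0.04 for all genes, so the sum does not stand for each gene. Bipolar, amacrine and ganglion cell genes, 24 in number, lay at 9693 to 12883 at 0 h and 10957 to 14398 at 24 hpl. Singly, 3 of these 24 were called higher and 13 lower at 24 hpl, beside 19.0% and 17.7% of all genes. Their median log2 fold change was -0.46 beside -0.10 for all genes, so the sum does not show the course of most of them. The pigment epithelium list was at 786 to 1573 at 0 h and 941 to 3358 at 24 hpl. The part of these cells in the levels of the factors was not tested.

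Naïve retinas were compared with 0 h and 28 dpl on the pseudo-counts, since the naïve libraries have no raw counts in the tables used. No label states whether they were prepared or sequenced with either experiment, so group and library set cannot be told apart. Of the 7 factors that passed the filter here, 2 were higher at 0 h than in naïve fish (nanog and myca) against 26.5% of 11700 genes, and 0 were lower against 26.9%, with no further factor at an unadjusted p below 0.05. At 28 dpl 3 were higher (nanog, pou5f3, myca) against 19.7%, and 1 was lower (mycn) against 17.6%. Among these, nanog entered the tests through the 0 h and 28 dpl retinas, where it was high. Its naïve median was 3.26 pseudo-counts, and the filter asked for at least 5 in at least 6 libraries.

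In naïve retinas nanog ran from 0.12 through a median of 3.26 to 10.2 pseudo-counts, below every 0 h and every 28 dpl retina. The difference on the log2(pseudo-count + 1) scale was 2.71 ± 0.42 for both groups (limma adjusted p = 1.3e-05 for 0 h and 5.2e-05 for 28 dpl; exact permutation p = 0.0022 for each, the smallest that 6 against 6 allows). For pou5f3 the naïve retinas ran from 2.12 through 6.60 to 10.2, all below the 28 dpl range of 15.8 to 22.5. That difference was 1.60 ± 0.44 (limma adjusted p = 0.0066), and at 0 h it was 0.90 ± 0.44 and not called (adjusted p = 0.085), except without 0 h replicate 5 (1.25, adjusted p = 0.010) or after rescaling to equal totals (1.32, adjusted p = 0.018).

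The level of myca was 6.38 to 41.5 with a median of 22.1 in naïve retinas. It was higher at 0 h by 1.39 ± 0.32, with 5 of 6 retinas above the naïve range, and at 28 dpl by 0.96 ± 0.32 (limma adjusted p = 8.8e-04 and 0.022). The second call was lost when 28 dpl replicate 1 or naïve replicate 2 was left out, with an adjusted p of up to 0.057. By contrast mycn was lower at 28 dpl than in naïve fish, 93.4 to 176 beside 144 to 272, with 5 of 6 retinas below the naïve range (-0.70 ± 0.18, limma adjusted p = 0.0048). For mycb, klf6a and lin28a no difference was called at 0 h (0.15 ± 0.17, 0.02 ± 0.14 and -0.48 ± 0.36) or at 28 dpl (-0.23 ± 0.17, -0.32 ± 0.14 and -0.42 ± 0.36). Other markers differed from naïve as well. Of all genes, 26.5% were higher and 26.9% lower at 0 h, and 19.7% and 17.6% at 28 dpl. Of 7 lymphocyte genes tested, 4 were higher and 2 lower at 0 h (median 2.08), and 4 higher and 0 lower at 28 dpl (1.32). Their summed level was 33.8 to 78.6 pseudo-counts in naïve, 71.8 to 104 in 0 h and 50.7 to 89.8 in 28 dpl retinas. Of 10 epidermis and cornea genes 6 were higher and 1 lower at 0 h (median 1.01), and 4 higher and 0 lower at 28 dpl (0.85). Their sums were 109 to 421 in naïve, 274 to 459 in 0 h and 275 to 365 in 28 dpl retinas. In naïve fish cldni, cyt1 and cyt1l were at 0. Of 10 pigment epithelium genes 1 was higher and 7 lower at 0 h (median -1.20), and 1 higher and 0 lower at 28 dpl. Their sums were 776 to 4438, 786 to 1573 and 1331 to 3292 in the same order. Of 12 MG genes 0 were higher and 7 lower at 0 h, and 1 higher and 4 lower at 28 dpl. The part of these cells in the differences of nanog, pou5f3 and myca was not tested. For mych, below the filter here, the exact permutation p was 0.38 at 0 h and 0.71 at 28 dpl. Photoreceptor markers summed to 315146 to 361863 pseudo-counts in naïve retinas, above all 0 h retinas, and totals of all pseudo-counts ran from 2497761 to 2707270 in naïve libraries, above all of the other 48 (1513697 to 2443195). With values rescaled to the median total, the median difference of all genes from naïve moved from 0.02 to 0.47 at 0 h and from 0.05 to 0.38 at 28 dpl, and mycn at 28 dpl was no longer called (-0.35, adjusted p = 0.12).

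Genes whose log2 CPM over the 48 libraries was most like that of each factor, by Pearson's r, are given as a description, since all points share the same lesion course and libraries. For klf6a these were grwd1, cbx7a and jak1 (r = 0.939, 0.930 and 0.922), and for lin28a cbx7a, jak1 and cad (0.888, 0.856 and 0.854). The nearest to mycb were si:ch211-217k17.7, stmn4l and dkc1 (0.930, 0.924 and 0.921), and to mych junbb, mak16 and sdad1 (0.909, 0.907 and 0.902). For mycn they were hsp90ab1, anp32b and ppm1g (0.840, 0.837 and 0.817). Likeness was weaker for nanog (prmt9, 0.676), myca (cdh12a, 0.657) and pou5f3 (mcm3l, 0.604). For the 4 factors with their highest mean at 24 hpl the nearest gene had an r of 0.888 or more, and for the others 0.840 or less.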

How the data were processed

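RNA from single whole retinas (250 ng) went into 3′ mRNA libraries. Per the study's methods, STAR aligned the reads to the zebrafish genome (build given as dR10), HTSeq gave gene counts and edgeR was used to normalize; versions are not given in the sources used here. Deposited read counts of 48 libraries (15245 genes) went into the tests; the 7 comparison tables hold the same 0 h counts. Deposited pseudo-counts, a normalized signal from the authors' use of edgeR on all 54 libraries, gave the levels; 12 of its entries carry dates where gene names belong and were dropped. The authors' own log2 fold changes and log2 CPM, score (likelihood ratio), p-values and FDR in the deposited tables were not used.

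Counts were fitted with edgeR 4.0.16 in R 4.3.3 (quasi-likelihood, TMM, group and experiment terms, 48 libraries, at least 5 reads in at least 6 libraries, 13075 genes). The SE beside an edgeR log2 fold change is approximate. It is the absolute log2 fold change divided by the square root of the F statistic. Pseudo-counts of 18 libraries were fitted with limma 3.58.1 on log2(value + 1), 11700 genes. Exact permutation tests were two-sided, 20 in number, smallest p 0.0022. Fold changes on the log2(value + 1) scale understate changes of low genes. Alternatives were DESeq2 1.42.0 and those in the closing section. On counts simulated for 24 hpl against 0 h, edgeR recovered 54% of 2-fold and 82.8% of 4-fold changes and called 8 of 12686 unchanged genes. Unlike the data, the simulation changed only a small part of the genes and held no difference between experiments. These rates therefore need not hold for the real comparison. Plots used matplotlib 3.10.9 with scipy 1.17.1, pandas 2.3.3 and numpy 2.4.6 on Python 3.11.15.

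Each retina came from 1 fish. Same-numbered libraries of different groups did not deviate together beyond the experiment (median correlation -0.007 over 168 pairs), so numbers do not pair fish. Members and gene lists (17) were chosen with earlier results of these data known. The text names all 10 factors and up to 4 genes with the smallest adjusted p per list and comparison. It names the 3 genes most like each tested factor, but only the nearest 1 for nanog, myca and pou5f3. The gene max was added after its values were seen. Intervals and detection limits cover counting error only. No sequences or coordinates are given.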

Additional observations from a re-analysis of the deposited data

Results flagged for a closer look

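Of 65 groups of 6 retinas checked for a retina far from the others, 3 were flagged, where chance flags about 1 in 20. For mycn at 5 dpl, replicate 2 was highest at 849 pseudo-counts while the others lay at 214 to 328, and its gap made up 0.821 of the range. It is the library with 228611 reads, of which 129 were mycn. For klf6a at 72 hpl, replicate 2 was lowest at 209 beside 257 to 281, a gap of 0.663 of the range. For klf6a at 14 dpl, replicate 5 was lowest at 165 beside 209 to 223, a gap of 0.766 of the range.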

How the results depend on the processing

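Reads limit the low factors: lin28b and klf4 with 7 and 45 reads allow no statement on change, and mych, pou5f3 and nanog have SEs of 0.31 to 0.97 against 0 h. Of 1210 estimates of single factors under other settings 1148 kept their side of the threshold, 23 lost and 39 gained a call. With 1 library left out, 1373 of 1416 kept it, 16 lost and 27 gained a call. No called estimate changed sign, and 40 and 51 estimates did that were uncalled both times. The causes of these changes were not tested.

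Factors called, main and other values: at 72 hpl 4, and 2 in experiment 1 alone; at 5 dpl 4, and 2 in experiment 1 alone; at 10 dpl 0, and 1 (pou5f3) with the likelihood ratio test or limma; at 14 dpl 0, and 1 (pou5f3) with the likelihood ratio test, DESeq2, limma or without 5 dpl replicate 2; at 28 dpl 0, and 2 (klf6a and mycb) with DESeq2 or its size factors, the likelihood ratio test, in experiment 1 alone or without 5 dpl replicate 2 or 0 h replicate 5. From 72 hpl to 5 dpl there were 2, and 1 (myca) without the experiment term or without the filter. Experiment 1 alone gave 1 (mych, -2.52, edgeR adjusted p = 0.039), and experiment 2 alone gave 0. From 5 to 10 dpl there were 4, and 1 in experiment 1 and 2 in experiment 2 alone. From 14 to 28 dpl there were 0, and 1 (klf6a) with DESeq2 or its size factors, the likelihood ratio test, experiment 1 alone or without 5 dpl replicate 2. At 0 h against naïve there were 2, and 5 after rescaling, where klf6a (0.50), mycb (0.63) and pou5f3 (1.32) were added.

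With each library left out in turn, factors called ranged from 0 to 1 at 10 and 14 dpl, 0 to 2 at 28 dpl, 2 to 4 from 24 to 36 hpl, 1 to 3 from 72 hpl to 5 dpl and 0 to 1 from 14 to 28 dpl. All genes called then ranged from 958 to 1841 at 14 dpl (main 1722), 643 to 1143 at 28 dpl (main 1056), 3 to 13 from 10 to 14 dpl (main 8) and 61 to 118 from 14 to 28 dpl (main 105).

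All genes called also moved by more than 1.5 times in some settings. Without the experiment term they were 763 at 10 dpl (main 1296), 842 at 14 dpl, 489 at 28 dpl, 943 from 24 to 36 hpl (main 1497), 1086 from 5 to 10 dpl (main 1643), 5 from 10 to 14 dpl and 35 from 14 to 28 dpl. In experiment 1 alone, with 3 retinas a group, they were 4033 at 36 hpl (main 6141), 2070 at 5 dpl (main 4161), 689, 664 and 680 at 10, 14 and 28 dpl, and 810, 775, 1107 and 754 for the 4 steps from 24 hpl to 10 dpl (main 1497, 1647, 1765 and 1643), then 203 from 14 to 28 dpl. In experiment 2 alone they were 757, 920 and 487 at 10, 14 and 28 dpl, 786, 907 and 834 for the 3 steps from 24 hpl to 5 dpl, and 2 and 11 for the last steps. From 10 to 14 dpl the likelihood ratio test gave 25, DESeq2 37, limma 4, and the fits without 5 dpl replicate 2 or 0 h replicate 5 gave 18 and 14. From 14 to 28 dpl these were 171 and 195 for the first 2 tools, and 183 without 5 dpl replicate 2, and 111 without 0 h replicate 5. The replicate block, with numbers that do not pair fish, left the number of factors called as it was in all 15 comparisons, for example 6 at 24 hpl with 4670 genes called (main 4791).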
